A study of Arabidopsis thaliana with 9 samples.

Results

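TAA1 and the YUCCA (YUC) genes encode the enzymes of the main route from tryptophan to the auxin indole-3-acetic acid (IAA). TAA1 is an aminotransferase that turns tryptophan into indole-3-pyruvic acid, and the YUC flavin monooxygenases turn this intermediate into IAA. Young leaves and shoot apices are known sites of this synthesis, and a bud makes auxin of its own which it can export into the stem. Apical auxin inhibits buds and basal cytokinin (CK) can activate them, and the values below describe how the transcripts of this route stood in buds under these treatments. The genes are TAA1 (AT1G70560), YUC2 (AT4G13260), YUC4 (AT5G11320), YUC6 (AT5G25620) and YUC11 (AT1G21430). They were taken as the genes of the route that have a named probe set, 5 of the 16 listed, with 1 probe set each among the 22810 of the array, which give 13384 named genes. The 4 YUC probe sets are named by the platform annotation and that of TAA1 by the locus column of Data S1, the study's own list of 220 transcripts. That list was chosen on these arrays for its differences between the groups, so that the direction of TAA1 is not independent evidence. The 4 YUC genes are not in it.

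RNA from cauline buds of Col-0 wild-type plants was hybridised to 9 Affymetrix ATH1 arrays, in 3 groups of 3 biological replicates. Pieces of stem, each with the node of the first cauline bud, were isolated and kept for 18 h with 1 µM of the auxin NAA apically and 1 µM of the CK BA basally (labelled NAA+BA), with 1 µM NAA apically alone (labelled NAA), or with the ethanol solvent (labelled mock). The values are log2 expression values made by the authors with the RMA algorithm. The labels and Data S1 name the arrays of mock and NAA in opposite ways. For every entry of Data S1, TAA1 included, the sign of the difference between auxin and control follows from the deposited values only when the names mock and NAA are exchanged. Groups are therefore called by their labels, and hormone groups or arrays below are those labelled NAA+BA and NAA. A sentence on the labelled NAA and mock arrays turns round if Data S1 has the right names. TAA1, YUC2 and YUC4 would then be lower with auxin alone than with the control or with auxin plus CK. Differences from labelled mock are therefore not read as effects of auxin. Array medians lay between 6.987 and 7.112, with the precision set by the small number of arrays. Weights estimated by limma from the spread were lowest for mock replicate 3 (0.156) and NAA replicate 3 (0.235). Transcript levels of whole buds cannot tell fewer expressing cells from less RNA per cell.

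As a check of the tissue, LHCB4.1, a light-harvesting gene, and RCA, the Rubisco activase gene, were the 2 of 11 listed photosynthesis genes with a named probe set. Their means lay between 12.79 and 13.60 in every group. EXPA7, a root hair expansin gene and the 1 of 9 root markers that could be named, was above 5 on 1 of 9 arrays. Flower organs and vascular tissue were not checked, since none of their listed markers could be matched to a probe set.

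TAA1, YUC2 and YUC4 were higher on the arrays labelled NAA+BA and on those labelled NAA than on the arrays labelled mock, without overlap between the groups. YUC6 was higher on the arrays labelled NAA+BA only by a small amount, and YUC11 was near the lower end of the scale and passed no test. With NAA+BA against mock, the fold changes were 2.94 for TAA1, 2.52 for YUC4, 2.11 for YUC2 and 1.54 for YUC6. None of the 5 genes passed the test of NAA+BA against NAA. Only 0.00877% of all probe sets passed it, so this says little about these genes. Of the 4 YUC genes, YUC2, YUC4 and YUC6 had all 3 NAA+BA arrays above all 3 mock arrays, against 18.8% of all probe sets. YUC2 and YUC4 had all 3 NAA arrays above all 3 mock arrays, against 17.3%.

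TAA1 stood at 9.39, 9.42 and 9.56 on the arrays labelled NAA+BA (replicates 1 to 3), at 8.95, 9.02 and 9.45 on those labelled NAA, and at 7.83, 7.67 and 8.20 on those labelled mock. Every array of both hormone groups lay above every mock array, and the lowest labelled NAA value was 0.75 above the highest mock value. Replicate 3 was the highest of its group in each of the 3 groups. TAA1 exceeded mock by 1.56 on the log2 scale with NAA+BA (SE 0.17, adjusted p = 0.0011 from limma), with 64 of 22810 probe sets above it. With NAA it exceeded mock by 1.24 (SE 0.17, adjusted p = 0.0021 from limma), with 109 probe sets above it. The study chose TAA1 on these same differences, so these values describe it and are no separate test.

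**Figure D1:**
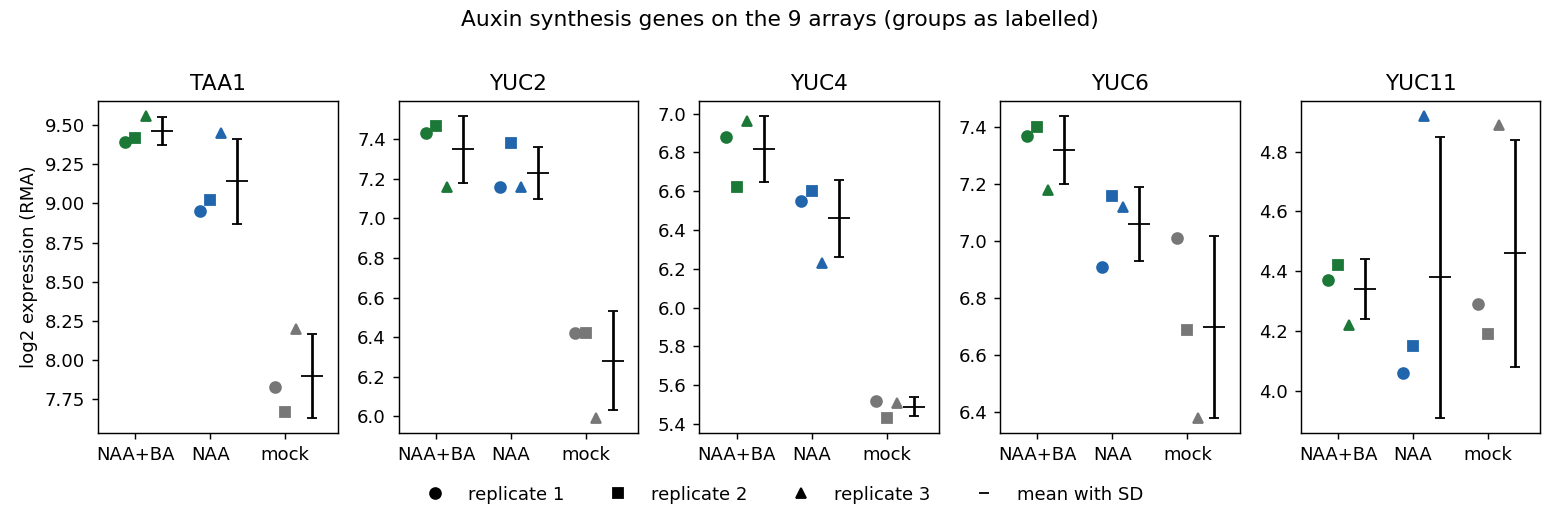
Log2 expression values (vertical axis, RMA) of TAA1, YUC2, YUC4, YUC6 and YUC11 on the 9 arrays, by labelled group, with a symbol for each replicate and the mean with SD (n = 3) beside the points; the scale differs between panels. TAA1, YUC2 and YUC4 do not overlap between either hormone group and mock, while YUC11 lies between 4.06 and 4.92 in all groups.

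YUC4, which acts mainly in leaf and flower primordia, had the smallest spread on the mock arrays of the 5 genes. It stood at 6.88, 6.62 and 6.96 on the arrays labelled NAA+BA, at 6.55, 6.60 and 6.23 on those labelled NAA, and at 5.52, 5.43 and 5.51 on those labelled mock. The mock values thus lay within 0.09 of each other, and the nearest hormone array was 0.71 above them. Between NAA+BA and mock the log2 fold change was 1.33 (SE 0.14, adjusted p = 8.09e-04 from limma). Between NAA and mock it was 0.97 (SE 0.14, adjusted p = 0.0023 from limma), a fold change of 1.96, just under the 2-fold line.

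YUC2, which acts redundantly with other YUC genes in leaf and flower development, followed the same order of group means. It stood at 7.43, 7.47 and 7.16 on the arrays labelled NAA+BA, at 7.16, 7.38 and 7.16 on those labelled NAA, and at 6.42, 6.42 and 5.99 on those labelled mock. Both hormone groups overlapped each other and lay at least 0.74 above mock, whose replicate 3 was the lowest of the 9 arrays. Between NAA+BA and mock the log2 fold change was 1.08 (SE 0.15, adjusted p = 0.0025 from limma), and between NAA and mock 0.95 (SE 0.15, adjusted p = 0.0037 from limma). Without mock replicate 3, its log2 fold changes were 0.93 and 0.81, both under 2-fold, and both still had an adjusted p under 0.05.

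YUC6, whose excess is known to give high-auxin plants, had an SD of 0.32 on the mock arrays (n = 3). This was the widest mock spread among the members above 5 on every array. YUC6 stood at 7.37, 7.40 and 7.18 on the arrays labelled NAA+BA, at 6.91, 7.16 and 7.12 on those labelled NAA, and at 7.01, 6.69 and 6.38 on those labelled mock. The NAA+BA arrays lay above all others, while mock replicate 1 was above the lowest NAA array. The log2 fold change was 0.62 between NAA+BA and mock (SE 0.16, adjusted p = 0.0265 from limma) and 0.37 between NAA and mock (SE 0.16, adjusted p = 0.1592 from limma). The first of these was lost without mock replicate 2 (adjusted p = 0.0769) or any single NAA+BA array (adjusted p 0.0547 to 0.0858), and with only the 6 arrays compared (adjusted p = 0.0567). The second passed with array weights (adjusted p = 0.0101).

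YUC11 belongs to the YUC genes known for their use in the embryo and endosperm. It stood at 4.37, 4.42 and 4.22 on the arrays labelled NAA+BA, at 4.06, 4.15 and 4.92 on those labelled NAA, and at 4.29, 4.19 and 4.89 on those labelled mock. It was above 5 on none of the 9 arrays, and the highest values were those of NAA replicate 3 and mock replicate 3. The log2 fold changes were -0.12 between NAA+BA and mock (95% interval -0.67 to 0.43) and -0.08 between NAA and mock (95% interval -0.63 to 0.47). Their sign turned when single arrays were left out, so YUC11 has no direction here.

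Since the name of TAA1 comes from Data S1 alone, whose entries were picked for such differences on these arrays, its call came with its choice and only the 4 YUC genes are set beside the background. Of these, 2 (YUC2 and YUC4) were called higher between NAA+BA and mock, where 2.19% of all probe sets were called higher (5.44% in either direction). These 4 were also chosen with earlier results of these data known, so the shares describe them and are no separate test. A call needed at least a 2-fold change with a limma adjusted p below 0.05, as in the methods of the study. Between NAA and mock, 0 of the 4 were called by limma, where 1.28% of all probe sets were (4.78% in either direction), YUC2 and YUC4 having passed the adjusted p and missed the 2-fold change. By the adjusted p alone, 3 of the 4 YUC genes were higher between NAA+BA and mock, against 10.6% of all probe sets (19.9% in either direction), and 2 between NAA and mock, against 9.03% (18.3% in either direction). The log2 differences of YUC4, YUC2, YUC6 and YUC11 were 1.33, 1.08, 0.62 and -0.12 between NAA+BA and mock. The median over all probe sets was 0.02. Between NAA and mock they were 0.97, 0.95, 0.37 and -0.08, with a median of 0.04 over all probe sets. The 2 comparisons share the arrays labelled mock. In the grouping of Data S1, NAA+BA against labelled mock is auxin plus CK against auxin alone, and labelled NAA against labelled mock is the control against auxin.

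**Figure D2:**
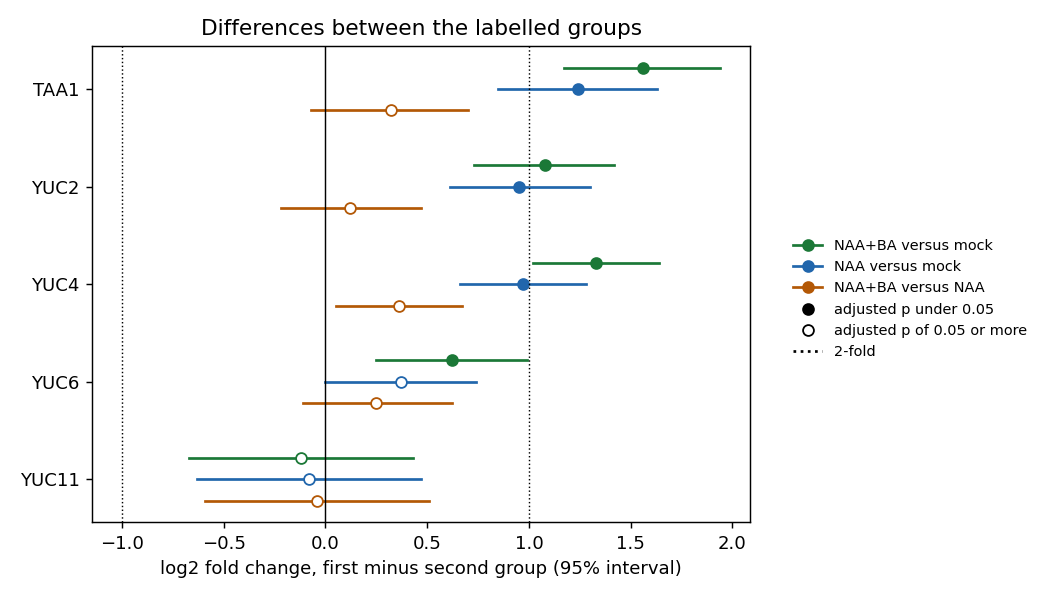
Log2 fold changes (horizontal axis, first minus second labelled group) of the 5 genes in 3 comparisons, as points with 95% intervals from limma; filled points have an adjusted p under 0.05 and dotted lines mark a 2-fold change. TAA1, YUC2 and YUC4 are filled against mock, YUC6 only with NAA+BA, and all 5 are open between NAA+BA and NAA.

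By the labels, the comparison of NAA+BA with NAA asks whether basal CK changed the transcripts under apical auxin. None of the 5 genes was called. In this comparison limma called 0.00877% of all probe sets, and 568 of 22810 had an unadjusted p under 0.05. YUC4 had the lowest unadjusted p of the 5, with a log2 fold change of 0.36 (95% interval 0.05 to 0.67, adjusted p = 0.9996 from limma). TAA1 differed by 0.32 (95% interval -0.07 to 0.70), YUC6 by 0.25 (95% interval -0.11 to 0.62), YUC2 by 0.12 (95% interval -0.22 to 0.47) and YUC11 by -0.04 (95% interval -0.59 to 0.51), each with the same adjusted p. Each of these intervals, which are not adjusted for the number of probe sets, ended below a 2-fold rise. The 3 NAA+BA arrays lay above all 3 NAA arrays for YUC4, by 0.03, and for YUC6, by 0.02, as they did for 5.27% of all probe sets. The median over all probe sets was -0.001. If the names of mock and NAA are exchanged, these values are those of auxin plus CK against the control.

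**Figure D3:**
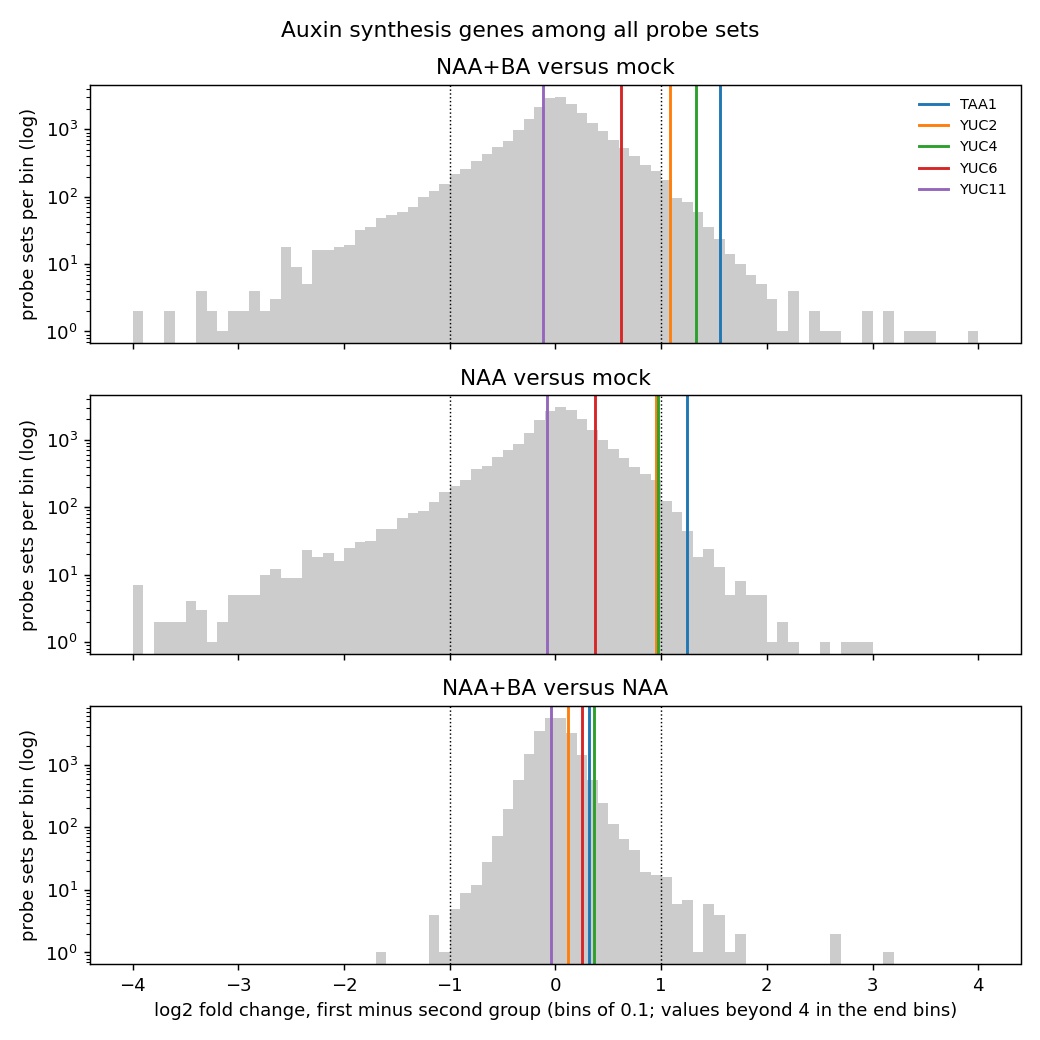
Number of probe sets (vertical axis, log scale) by log2 fold change (horizontal axis) for all 22810 probe sets in each comparison of the labelled groups, with coloured lines at the 5 genes and dotted lines at a 2-fold change. TAA1, YUC4 and YUC2 lie in the right tail against mock, with 64, 149 and 391 probe sets above them for NAA+BA, and YUC11 lies near 0 in each panel.

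Of 20 genes that conjugate, inactivate or release IAA, 7 could be matched to a probe set, and against mock 1 was called higher and 1 lower in each hormone group, where 5.44% of all probe sets were called in either direction with NAA+BA and 4.78% with NAA. GH3.3 was called higher and GH3.5 lower than mock in both hormone groups, and their products join IAA to amino acids. GH3.3 averaged 9.16 ± 0.35 on the arrays labelled NAA+BA, 8.92 ± 0.05 on those labelled NAA and 7.81 ± 0.46 on those labelled mock (SD, n = 3 each), with log2 fold changes of 1.35 and 1.11 against mock (adjusted p = 0.0050 and 0.0115 from limma). GH3.3 is also an entry of Data S1, and without mock replicate 2 its difference between NAA and mock was 0.85, under 2-fold. GH3.5 averaged 8.95 ± 0.38 with NAA+BA, 8.83 ± 0.19 with NAA and 11.08 ± 0.66 with mock (SD, n = 3 each), with log2 fold changes of -2.13 and -2.25 (adjusted p = 0.0025 and 0.0018 from limma). UGT74D1, whose product glucosylates IAA, differed by -0.70 between NAA+BA and mock (adjusted p = 0.0276 from limma), under 2-fold. This was lost without mock replicate 1 or 2 or NAA+BA replicate 1 or 3 (adjusted p 0.0771 to 0.1072). UGT74D1 differed by only -0.03 between NAA and mock, and by -0.67 between NAA+BA and NAA (adjusted p = 0.9364 and 0.9996 from limma). GH3.17 had estimates of -1.02 and -0.96 that did not pass (adjusted p = 0.0528 and 0.0679 from limma), and both passed without mock replicate 3 (-1.34 and -1.28, adjusted p = 0.0069 and 0.0089) and with dim probe sets removed (adjusted p = 0.0387 and 0.0498). With NAA+BA it also passed with the replicate block (adjusted p = 0.0405) and without NAA+BA replicate 1 (adjusted p = 0.0402), so that GH3.17 would be a second gene called lower there. The median of the 7 genes was -0.27 between NAA+BA and mock and -0.03 between NAA and mock.

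Aux/IAA genes encode repressors of auxin signalling, and many of them are themselves induced by auxin. Of 28 listed, 8 could be matched to a probe set, of which IAA31, IAA33 and IAA34 were above 5 on no array and IAA29 on 2, so that their differences and the medians say little. None of the 7 named by the platform annotation was called. Of all probe sets, 5.44% were called in either direction between NAA+BA and mock and 4.78% between NAA and mock. At such shares, no call among 7 genes says little about them. IAA19 could be named only through Data S1, so that its call came with its choice, with log2 fold changes of 1.03 between NAA+BA and mock and 1.1 between NAA and mock (adjusted p = 0.0037 and 0.0027 from limma). It was under 2-fold without mock replicate 1, at 0.91 with NAA+BA and 0.98 with NAA, without NAA replicate 3, at 0.96 with NAA, and, by a margin too small to show in 2 decimals, without NAA+BA replicate 2 with NAA+BA. IAA20 differed by 0.63 between NAA+BA and mock (adjusted p = 0.0211 from limma), and this was lost without mock replicate 2 or NAA+BA replicate 1 or 3 (adjusted p 0.0597 to 0.0844). The medians of the 8 genes were 0.16 and 0.17. Of 17 regulators known to act on TAA1 or YUC genes, SHI, SPL and IDD16 have a named probe set, and none of the 3 passed in any comparison, with medians of 0.13 and 0.09 against mock. By the adjusted p alone, 19.9% of all probe sets passed between NAA+BA and mock and 18.3% between NAA and mock, so 3 genes say little here. Tryptophan synthesis and the side routes to IAA are not analysed here, since none of their listed genes could be matched to a probe set.

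**Figure D4:**
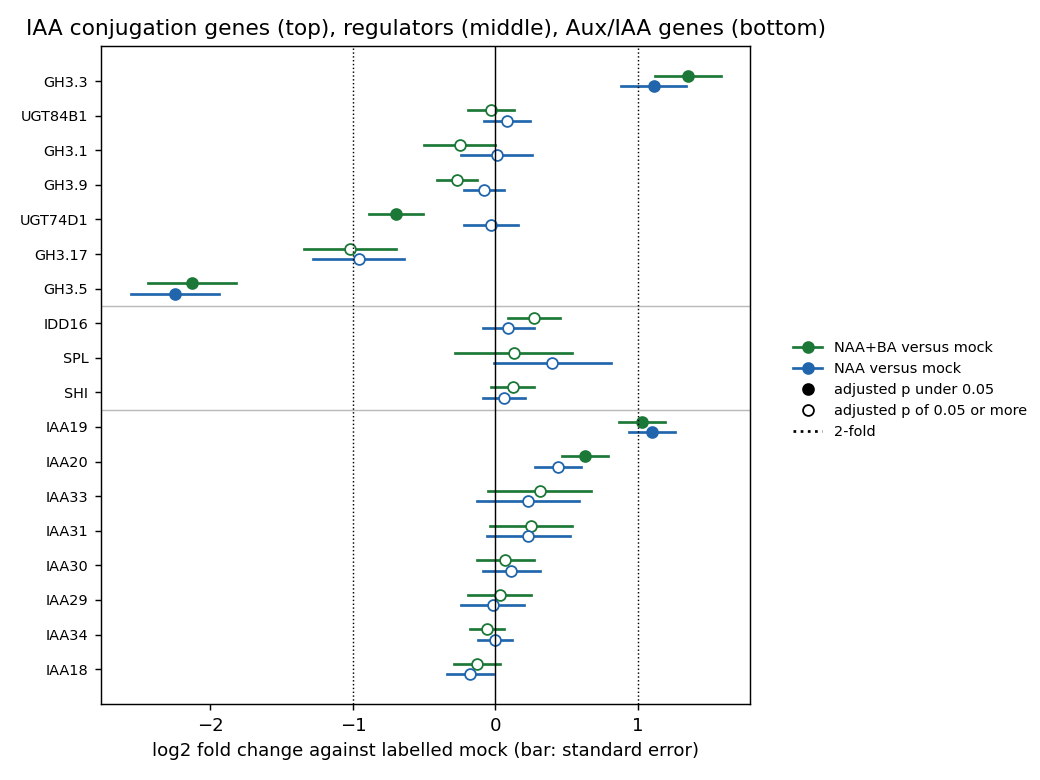
Log2 fold changes against the arrays labelled mock (horizontal axis, bars of 1 standard error) of the listed genes with a named probe set, for NAA+BA and NAA; filled points have an adjusted p under 0.05. GH3.3 and IAA19 lie to the right at 1.35 and 1.03 with NAA+BA, GH3.5 to the left at -2.13, and the 3 regulators near 0.

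Some tissue markers also differed between the groups. CUC3, a gene of organ boundaries that could be named only through Data S1, averaged 7.26 ± 0.17 on the arrays labelled NAA+BA, 6.80 ± 0.51 on those labelled NAA and 5.57 ± 0.21 on those labelled mock (SD, n = 3 each). Its log2 fold change was 1.69 between NAA+BA and mock and 1.23 between NAA and mock (adjusted p = 0.0022 and 0.0073 from limma). As for TAA1, the call of CUC3 came with its choice and is no separate test. CLV3, a stem cell gene and the other of the 14 meristem and primordium markers with a named probe set, was above 5 on no array. LHCB4.1 differed by -0.44 and -0.50 (adjusted p = 0.0279 and 0.0181) and RCA by -0.81 and -0.56 (adjusted p = 0.0080 and 0.0357), all under 2-fold. Leaving out single arrays lost LHCB4.1 in both comparisons (adjusted p up to 0.1061 with NAA+BA and 0.0774 with NAA) and RCA with NAA (adjusted p up to 0.1244). The part of tissue composition in the differences of TAA1, YUC2 and YUC4 was not tested.

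The genes most like each member over the 9 arrays, among probe sets with 1 gene name, were named as a description, since these correlations largely follow the 3 groups and all arrays share their normalization. For TAA1 they were EXPA4, an expansin gene (Pearson's r = 0.986), LAX3, an auxin influx carrier gene (0.986), and AT1G55820 (0.985). For YUC2 they were AT2G34250 (0.993), EXPA1, another expansin gene (0.992), and EMB1873 (0.988). For YUC4 they were B160 (0.995), AT4G10320 (0.984) and OSB1 (0.982). LAX3, EXPA1 and EMB1873 are entries of Data S1. For YUC6 they were AGL48 (0.977), AT5G50000 (0.944) and AT5G28442 (0.938), and for YUC11 AT3G57960 (0.971), AT3G62490 (0.968) and AT5G40155 (0.967). EXPA4 averaged 10.76 with NAA+BA, 10.55 with NAA and 9.72 with mock, and LAX3 7.91, 7.60 and 6.04 in the same order. The 3 genes most like YUC11 had means between 2.87 and 4.16 in every group.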

How the data were processed

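The deposited values of 9 ATH1 arrays are log2 expression values, which the authors made with RMA in R 2.15. For RMA, no version is given in the sources used here. The 22810 probe sets entered the fit as deposited. Group means were estimated in 1 limma 3.58.1 fit (R 4.3.3) of the 9 arrays, with Benjamini-Hochberg adjustment within each comparison across the whole array. The p-values measure the spread between arrays labelled as biological replicates. Probe sets with 1 gene in the platform annotation (13513; 503 more have several) were matched to RefSeq loci by gene ID (77 without one), and 98 further ones were named by the locus column of Data S1. Of its other columns, which hold the authors' comparisons, only the signs of the difference between auxin and control were read, to check the labels.

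Members and lists were chosen with earlier results of these data known. Named were the 5 members, up to 4 called or bright genes of a list, and the 3 probe sets most like each member. Deviations of same-numbered NAA and mock arrays from their group means correlated at 0.312, 0.375 and 0.459. Replicates 1 and 2 were not told apart, since NAA 2 with mock 1 gave 0.285 and NAA 1 with mock 2 gave 0.186. Replicate 3 stood apart in every comparison. Its arrays correlated at 0.459 (NAA, mock), 0.474 (NAA+BA, NAA) and 0.583 (NAA+BA, mock), and negatively with arrays of other numbers. Deviations from a group mean cancel within the group, so the negative values partly follow from the positive ones and are no separate evidence. In each of the other 2 comparisons 1 same-numbered correlation was under 0.1. The main fit did not use the replicate numbers. The fit was checked on simulated data. Alternatives were the replicate block, the 6 arrays compared, removal of dim probe sets (those not above 5 on 3 or more arrays), quantile normalization again, median centring, array weights, an intensity trend with a robust prior, no fold change threshold, exchanged names, and leaving out each array in turn. No sequence or genome position is given, because neither was used here.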

Additional observations from a re-analysis of the deposited data

How the results depend on the processing

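The counts of members below include TAA1, whose call came with its choice, so they describe how calls moved and are no separate test. Of all probe sets, 1.28% were called higher between NAA and mock and 2.19% between NAA+BA and mock. The members called higher between NAA and mock numbered 1, which was TAA1. They numbered 2 with quantile normalization again or array weights and 3 with no fold change threshold. When each array was left out in turn they numbered 1 to 2. The second gene was YUC2 without mock replicate 1 or mock replicate 2 and YUC4 without NAA replicate 3, each of which crossed the 2-fold line. Between NAA+BA and mock the 3 calls became 2 without mock replicate 3, where YUC2 dropped out, 2 with array weights for the same gene, and stayed at 3 without any other single array. With the names mock and NAA exchanged, the members called were 3 between NAA+BA and NAA and 0 between NAA+BA and mock, and the log2 fold changes between NAA and mock became -1.24 for TAA1, -0.95 for YUC2, -0.97 for YUC4, -0.37 for YUC6 and 0.08 for YUC11. The replicate block changed no call of a member in any comparison. With array weights, YUC11 changed to 0.21 between NAA+BA and NAA and to 0.13 between NAA+BA and mock. When each array was left out in turn, YUC11 ranged from -0.35 to 0.14 between NAA and mock, -0.2 to 0.23 between NAA+BA and NAA and -0.25 to 0.1 between NAA+BA and mock, and no other member changed sign. The cause was not tested. YUC11 was left out by the filter on dim probe sets.

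The background counts moved with single arrays. All probe sets called between NAA+BA and mock numbered 1241, 741 without mock replicate 1 and 2167 without mock replicate 3, and 4542 with no fold change threshold. Between NAA and mock they numbered 1091, 732 without mock replicate 1, 2041 without mock replicate 3, 1734 with array weights and 4179 with no fold change threshold. Between NAA+BA and NAA they numbered 2, and 7 with the replicate block, 30 with array weights, 4 without NAA+BA replicate 3 and 1 without any other single array, with quantile normalization again, with median centring or with only the 6 arrays compared. The exchanged names give 1241 between NAA+BA and NAA and 2 between NAA+BA and mock. With 3 arrays a group, differences smaller than the intervals given for each gene could be missed.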
